A study of Mus musculus with 16 samples.

Results

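The comparison described here sets the 4 CMC-treated Ψ-seq libraries of Rnmt cKO mice against the 4 CMC-treated libraries of control mice, 8 of the 16 libraries in the series. RNMT is the methyltransferase that completes the cap of RNA polymerase II transcripts. Total RNA came from CD4 T cells of lymph nodes, activated for 20 h on plates coated with anti-CD3 (5 µg/ml) and anti-CD28 (1 µg/ml). All animals were female, carried loxP-flanked Rnmt alleles (Rnmt fl/fl) and, according to the study's methods, were kept on a C57B6/J background. Control animals were CD4cre -, and Rnmt cKO animals carried the CD4-Cre transgene, which deletes the gene from the double-positive stage of thymocyte development onwards. The other 8 libraries are mock-treated aliquots of RNA from the same 8 animals, and they serve here as the background of the assay. The files hold rRNA only, so neither the T cell identity nor the loss of Rnmt could be checked in them, and that the libraries are separate animals rests on the numbering of their titles.

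Pseudouridine is an isomer of uridine that H/ACA small nucleolar ribonucleoproteins install in rRNA. Part of the small nucleolar RNAs are transcribed with a cap of their own and others are released from introns of capped transcripts. CMC, a carbodiimide used at 0.17 M on 300 ng of RNA, leaves a stable adduct on pseudouridine, and reverse transcriptase stops there, so that the sequenced read starts 1 nucleotide downstream of the modified base. Other bulky modifications, and breaks in the RNA, end cDNA without CMC.

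Each value is a count of read starts at 1 nucleotide of an rRNA (18S of 1871 nt, 28S of 4731 nt, 5.8S of 156 nt or 5S of 120 nt), and a stop is named here by the rRNA and the position of the first nucleotide of the read, counted from 1. The same starts were scaled in 2 ways. Termination is the percentage that the starts at a nucleotide make of all starts in the window of 65 nucleotides ending there. Read starts per library total are given as CPM, the count scaled to a library total of 1000000 starts. The tests covered all 697 positions with a mean CMC termination of at least 3% over the 8 libraries, whatever their mock termination: 141 in 18S, 476 in 28S, 46 in 5.8S and 34 in 5S. The positions just inside this limit had 3.003% (18S 1367) and 3.005% (28S 997), and those just outside had 2.999% (28S 1722) and 2.996% (18S 767). Of the 697, 62 had a CMC termination at least 3 times the mock termination (25 in 18S and 37 in 28S) and are called CMC-dependent below. The other 635 had a CMC termination between 0.467 and 2.94 times the mock termination.

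Some stops can be seen in sequence. 18S rRNA was read from an 18S copy on the + strand of chromosome 17 of GRCm38, which GENCODE vM21 holds as exonic sequence of the genes CT010467.1 (annotated on the - strand) and, for its later part, Gm42418. The copy has 1849 nt and was placed by 20 CMC-dependent stops between nucleotides 600 and 1700, of which all 20 have a T 1 nucleotide upstream at a shift of 5 (9 of them at the next best of 61 shifts). T makes 21.9% of the copy. The following 25-base stretches were chosen for the strongest stops of 18S and, as a comparison, for its pair of strongest CMC-dependent stops. The capital marks the nucleotide 1 upstream of the stop. The stop at 18S 1251 lies next to the uridine known to become 1-methyl-3-(3-amino-3-carboxypropyl)pseudouridine, which blocks reverse transcriptase by itself. Those at 18S 1853 and 1854 lie next to adjacent adenosines known to be dimethylated by DIMT1, and were placed by their distance to the 3′ end.
18S 1251 (chr17:39847595-39847619): gcttaatttgacTcaacacgggaaa
18S 1853 (chr17:39848170-39848194): tttccgtaggtgAacctgcggaagg
18S 1854 (chr17:39848171-39848195): ttccgtaggtgaAcctgcggaagga
18S 825 (chr17:39847169-39847193): aaaattagagtgTtcaaagcaggcc
18S 1048 (chr17:39847392-39847416): gaaagtcggagtTtcgaagacgatc

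Control CMC libraries held 1261221 to 1842139 read starts and Rnmt cKO CMC libraries 1638354 to 2066120 (exact permutation test, 2-sided, n = 4 each, p = 0.143). At the 697 positions every CMC library had at least 47 starts at the stop and 1461 in its window. Some libraries stood apart. Rnmt cKO 3 and 4 had few starts in the last 60 nucleotides of 18S, with 0.950% and 0.783% of the 18S starts against 1.67% and 1.77% in Rnmt cKO 1 and 2 and 1.76 to 2.79% in control. Control 1 had more starts than each of the other controls at a cluster of 28S stops described below. Values without these libraries are given beside the results that they move most.

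The first question was whether Rnmt deletion altered how often cDNA ended at a stop. Termination was higher in Rnmt cKO at 21 positions (3.01%) and lower at 1 (0.143%), together 22 of the 697 (3.16%; edgeR quasi-likelihood test, Benjamini-Hochberg adjusted p under 0.05). Of the called positions 3 were in 18S, 14 in 28S and 5 in 5.8S, and 0 of them was CMC-dependent: their CMC termination was between 0.732 and 1.13 times the mock termination. In each of the 22 the genotypes did not overlap, which was so for 58 higher (8.32%) and 22 lower (3.16%) of the 697 positions. The log2 changes of the 21 higher positions lay between 0.30 and 0.82, and the median over all 697 was 0.00. At an unadjusted p under 0.05 there were 144 positions (20.7%). The calls were not stable. With positions of at least 1% termination tested, 0 of 4018 passed (lowest adjusted p = 0.0684), and leaving out 1 library at a time gave between 0 and 40 calls, with 0 without control 2, control 3, Rnmt cKO 1 or Rnmt cKO 3. The 22 positions kept their direction under each alternative that tested them.

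**Figure D1:**
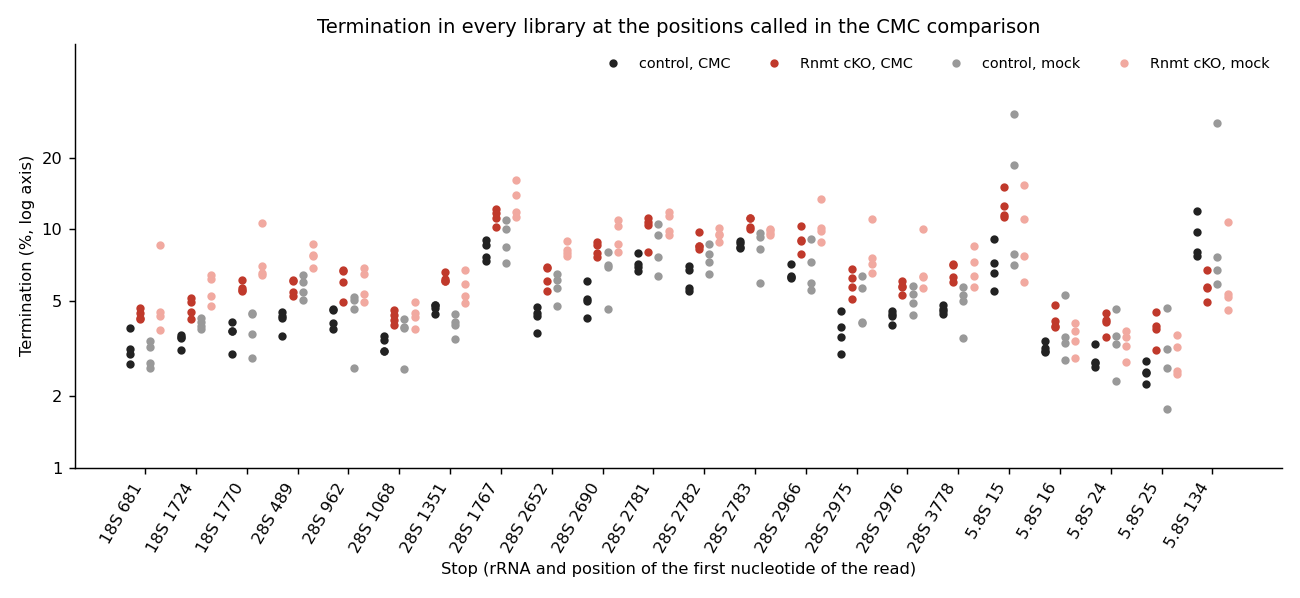
Termination (%, log axis) at the 22 positions called in the CMC comparison, 1 point per library for control and Rnmt cKO, CMC and mock (n = 4 each). The red Rnmt cKO CMC points lie above the black control CMC points at 21 positions and below them at 5.8S 134, and at the 18S and 28S positions the pale mock points of Rnmt cKO are shifted the same way.

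The smallest p for termination was at 18S 1770, about 100 nucleotides from the 3′ end. Termination there was 3.01, 3.73, 3.74 and 4.07% in control 1 to 4 and 6.15, 5.65, 5.59 and 5.49% in Rnmt cKO 1 to 4. The lowest Rnmt cKO library was above the highest control. The log2 change was 0.65 (SE 0.10, edgeR adjusted p = 0.0261). The stop was as strong without CMC, with 2.88 to 4.45% in the control and 6.41 to 10.6% in the Rnmt cKO mock libraries.

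In 28S the called stops lay between positions 489 and 3778, and several were neighbours (2781, 2782 and 2783; 2966, 2975 and 2976), whose windows share most of their reads. At 28S 2690 termination was 5.01, 5.11, 4.23 and 6.05% in control and 7.94, 8.57, 8.85 and 7.68% in Rnmt cKO, a log2 change of 0.70 (SE 0.11, edgeR adjusted p = 0.0261). At 28S 3778 it was 4.54, 4.43, 4.80 and 4.61% in control and 6.01, 7.17, 7.08 and 6.32% in Rnmt cKO (log2 change 0.53, SE 0.09, adjusted p = 0.0261). Both stops were higher in each of the 4 Rnmt cKO libraries than in any control. The strongest called 28S stop was 1767, with 7.34 to 9.04% in control and 10.2 to 12.2% in Rnmt cKO (log2 change 0.47, SE 0.09, adjusted p = 0.0335). 28S 2975 rose from 3.74 ± 0.636% in control to 5.99 ± 0.738% in Rnmt cKO (SD, n = 4 each), and 28S 2652 from 4.30 ± 0.437% to 6.36 ± 0.693%. The stops 28S 1351 and 2976 moved less, by log2 changes of 0.42 and 0.41 (adjusted p = 0.0335 each). Of the called 28S stops 2783 had the smallest change, 0.30 on the log2 scale.

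The 5.8S rRNA, which pairs with 28S in the large subunit, held called stops at both ends. Near its 5′ end termination rose in Rnmt cKO at 15, 16, 24 and 25. At 5.8S 15 it was 9.14, 7.23, 6.59 and 5.50% in control and 12.5, 11.2, 15.1 and 11.5% in Rnmt cKO, the largest log2 change among the 697 positions (0.82, SE 0.16, edgeR adjusted p = 0.0335). At 5.8S 25 the control libraries had 2.25 to 2.80% and the Rnmt cKO libraries 3.10 to 4.5% (log2 change 0.61, adjusted p = 0.0344). The limit of 3% applied to the mean over both genotypes, which was 3.17% here. This position thus entered the test through the genotype in which it was higher. At the 3′ end 5.8S 134 was the 1 called position that fell, from 7.72, 12, 9.80 and 8.06% in control to 6.75, 5.74, 4.95 and 5.66% in Rnmt cKO (log2 change -0.70, SE 0.14, adjusted p = 0.0344). Its neighbour 5.8S 133 had a log2 change of -0.74 (adjusted p = 0.0757). These positions lie within 65 nucleotides of the 5′ start or 150 of the 3′ end, where the window or the reads are cut short. With all such positions left out, an alternative chosen after seeing the data, 14 of 554 positions passed. All 14 were higher in Rnmt cKO and among the 22. This left out every position of 5.8S and 5S, and with them the 1 lower call, so its loss was fixed in advance. The stops 18S 1770 and 28S 4621 were left out as well.

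Scaling to the library total asked whether the starts themselves, not only their share of the window, had changed. At the same 697 positions 9 (1.29%) passed the edgeR test, 8 higher (1.15%) and 1 lower (0.143%) in Rnmt cKO, and all 9 were also called in termination: 18S 1770, 28S 1767, 2690, 2783, 2975, 2976 and 3778, and 5.8S 25 and 134. The median log2 change over all 697 positions was 0.08 on this scale, and 157 (22.5%) had an unadjusted p under 0.05. TMM library sizes gave 14 positions, 14 higher and 0 lower. With positions of at least 1% termination tested 0 of 4018 passed, and leaving out 1 library gave between 0 and 32 calls, with 0 without control 2, control 3, control 4 or Rnmt cKO 3 and 2 without Rnmt cKO 1. The smallest p was at 28S 3778, with 201, 238, 227 and 233 CPM in control and 326, 382, 494 and 420 CPM in Rnmt cKO (log2 change 0.85, SE 0.13, adjusted p = 0.0439). 28S 2690 had 213 to 293 CPM in control and 393 to 508 CPM in Rnmt cKO (log2 change 0.80, SE 0.13, adjusted p = 0.0439). At 5.8S 134, the 1 position that was lower, the starts were 7026, 7954, 7406 and 6713 CPM in control and 5656, 4296, 3596 and 3736 CPM in Rnmt cKO (log2 change -0.75, SE 0.14, adjusted p = 0.0439). The 13 stops called in termination alone had read-start changes of the same direction, with adjusted p-values up to 0.0945. Over all 6713 positions with a mean of at least 10 starts, 0 (0%) passed (edgeR, lowest adjusted p = 0.103), while 832 (12.4%) had an unadjusted p under 0.05 and DESeq2 called 55.

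**Figure D2:**
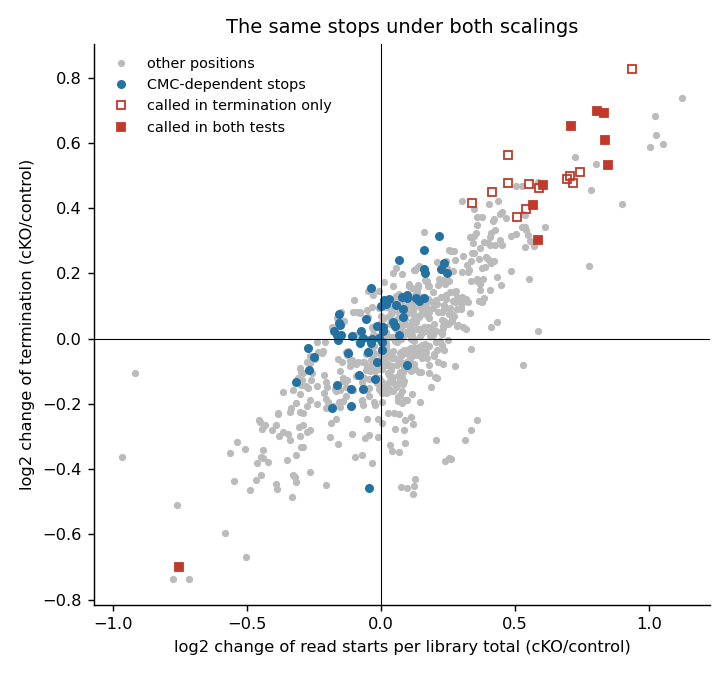
log2 change (cKO/control) of termination against log2 change of read starts per library total at the 697 positions in the CMC libraries, with 1 point per position. The called positions (red squares, filled where both tests passed) sit in the upper right except for 5.8S 134 at the lower left, and the blue CMC-dependent stops lie within -0.46 and 0.32 on the termination axis.

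The scalings parted at the 3′ end of 18S. At the DIMT1 adenosines, 18S 1854 had a termination of 64.4, 66, 58.7 and 57.8% in control and 62, 52.6, 55 and 60.1% in Rnmt cKO, which overlapped (log2 change -0.10, SE 0.07, edgeR adjusted p = 0.443). The read starts at this stop did not overlap, with 2892, 3559, 4151 and 3483 CPM in control and 2425, 2319, 1397 and 1311 CPM in Rnmt cKO (log2 change -0.92, SE 0.21, adjusted p = 0.0629). Rnmt cKO 3 and 4 were the lowest, as they were for all starts in the last 60 nucleotides. At 18S 1853 termination was 38.0, 42.8, 55.5 and 51.7% in control and 45.4, 44.3, 31.3 and 25.0% in Rnmt cKO (log2 change -0.36, SE 0.19, adjusted p = 0.323). With Rnmt cKO 3 and 4 left out, the log2 changes were -0.57 for the read starts at 18S 1854 (adjusted p = 0.299) and -0.07 for the termination at 18S 1853 (adjusted p = 0.865).

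None of the other strong stops passed the test of termination. At 18S 1251, the strongest of the 697, termination was 75.3, 70.5, 67.5 and 68.8% in control and 70.8, 65, 67.5 and 70.4% in Rnmt cKO (log2 change -0.04, SE 0.05, edgeR adjusted p = 0.664). Its starts were 3960 to 4567 CPM in control and 3281 to 3793 CPM in Rnmt cKO (log2 change -0.22, SE 0.09, adjusted p = 0.192). 28S 4184 had 50.4 to 59.7% in control and 47.4 to 55.3% in Rnmt cKO (log2 change -0.11, adjusted p = 0.407). 5.8S 2, next to the 5′ end, where cDNA of the whole rRNA ends, had 55.2 to 59.6% and 54.4 to 56.9% (log2 change -0.04, adjusted p = 0.629). Its window is cut by the rRNA start to this nucleotide and the first of the rRNA. Its percentage therefore does not compare with those over 65 nucleotides.

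CMC-dependent stops, which are those expected of pseudouridine, gave 0 calls of 62 in termination (background 3.16%) and 0 in read starts (1.29%). At an unadjusted p under 0.05 there were 9 of the 62 in termination, where 20.7% of all positions were. Their log2 changes in termination ranged from -0.46 to 0.32 with a median of 0.02, and 51 of them were smaller than 0.2 in size. The median of 2 standard errors was 0.19, but changes beyond 2 standard errors could also miss the adjusted threshold, as at 28S 4621. The genotypes did not overlap at 3 higher and 4 lower stops of the 62, beside 8.32% higher and 3.16% lower over all positions. Of the 18S stops shown above, 18S 825 had 9.98 to 11.8% in control and 9.62 to 11.8% in Rnmt cKO (log2 change 0.01, SE 0.09), and 18S 1048 had 10.2 to 12.2% and 10.7 to 12% (log2 change -0.01, SE 0.08).

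The largest change at a CMC-dependent stop was at 28S 4621, which was picked for the smallest termination p among the CMC-dependent 28S stops. Its CMC termination was 3.18 times the mock termination, near the limit of 3. The stop lies 110 nucleotides from the 3′ end, where reads are cut short. Termination there was 10.6, 12, 13.9 and 13.8% in control and 9.76, 10.9, 8.35 and 7.60% in Rnmt cKO, with Rnmt cKO 2 above control 1 (log2 change -0.46, SE 0.12, edgeR adjusted p = 0.0892). Its starts per library total overlapped throughout, with 2779 to 3953 CPM in control and 2912 to 3492 CPM in Rnmt cKO (log2 change -0.04, SE 0.12, adjusted p = 0.848). DESeq2 called the termination (adjusted p = 0.00740), as did edgeR without control 1 (0.0497) or without Rnmt cKO 2 (0.0356). With Rnmt cKO 3 and 4 left out the log2 change was -0.28.

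**Figure D3:**
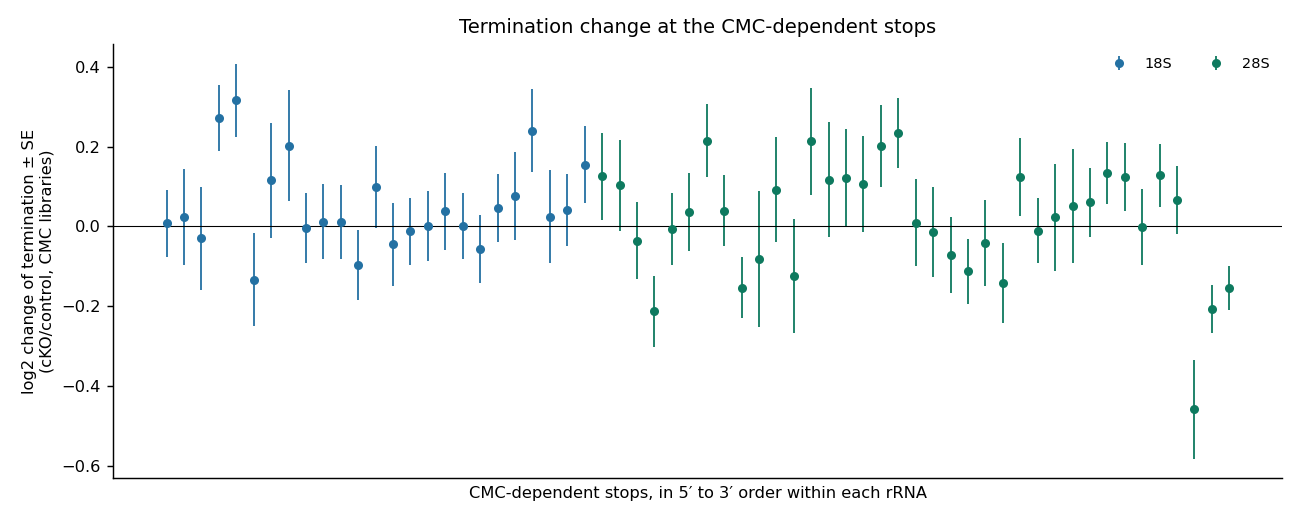
log2 change of termination (cKO/control, CMC libraries) with its SE at the 62 CMC-dependent stops, in 5′ to 3′ order within 18S (blue, 25) and 28S (green, 37). The points scatter around 0, and the lowest, at -0.46, is 28S 4621.

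The window of 28S 4621 holds the cluster of stops at 4577 to 4585, which had the largest changes in read starts of the 697 positions. At 28S 4582 the starts were 661, 232, 161 and 186 CPM in control and 671, 395, 759 and 866 CPM in Rnmt cKO (log2 change 1.13, SE 0.44, edgeR adjusted p = 0.180). Control 1 lay within the Rnmt cKO range, which kept the groups overlapping. At 28S 4584 it was 1352 CPM against 329 to 458 CPM in the other controls, and Rnmt cKO had 879 to 1505 CPM (log2 change 1.00, adjusted p = 0.191). Termination moved the same way at these stops, by log2 changes of 0.59 to 0.74 with adjusted p-values from 0.212 to 0.280. The control mean was under the limit of 3% at 4583 (2.53%) and 4585 (2.98%), which entered the test through the Rnmt cKO libraries. Without control 1 the read starts passed at 4577, 4582, 4583, 4584 and 4585, with log2 changes from 1.56 to 1.80 (edgeR, adjusted p from 0.0120 to 0.0423). In mock libraries these stops had log2 changes in termination of -0.92 to -0.42, the opposite sign, but the mock groups overlapped at each of them. At 28S 4577 mock termination was 10.4, 8.64, 4.10 and 3.19% in control and 5.74, 3.14, 4.43 and 2.62% in Rnmt cKO. Control 1 and 2 were the highest there. The interaction of genotype and CMC had its lowest adjusted p, 0.115, at 4583 and 4585 (edgeR with the animal as a block).

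The mock libraries asked which of the changes were seen without CMC. RNA of the same animals was used, so they are not independent of the CMC libraries as samples of the genotype. Control mock libraries held 1850996 to 2165668 read starts and Rnmt cKO mock libraries 1130058 to 1827610. These totals did not overlap (exact permutation test, 2-sided, n = 4 each, p = 0.0286). Over the 697 positions 0 (0%) passed in mock termination (edgeR, 85 or 12.2% at an unadjusted p under 0.05; DESeq2 called 18). With the replicate number as a block, since the numbers paired the mock libraries, 40 passed, 7 higher and 33 lower, and 3 of them were among the 22 called in CMC termination (5.74% of all positions passed). At the 17 called stops of 18S and 28S the mock log2 changes were positive at all 17, from 0.24 to 0.99 with a median of 0.51, against a median of 0.08 over the 697, and 13 had an unadjusted p under 0.05. The mock groups did not overlap at 10 of the 17 (10.6% of all positions were higher without overlap). At 28S 1767, for example, mock termination was 7.21, 11, 8.47 and 10.0% in control and 11.3, 11.8, 16.1 and 13.9% in Rnmt cKO.

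The called stops of 5.8S that were higher in Rnmt cKO moved otherwise. At 15, 16, 24 and 25 the mock log2 changes were -0.67 to -0.04, while the CMC changes were 0.40 to 0.82. At 5.8S 15 the mock termination was 30.4, 18.6, 7.87 and 7.12% in control and 15.4, 7.75, 11.1 and 6.03% in Rnmt cKO, with the highest values in control 1 and 2. 5.8S 134, the 1 lower call, moved the same way in both, with log2 changes of -0.90 in mock and -0.70 in CMC libraries. Its mock change was not past the threshold (edgeR adjusted p = 0.435), and the mock library of control 1 had 27.9%, against 5.87 to 7.65% in the other controls. This library stood apart over the whole of 5.8S, which held 4.08% of its starts against 9.58 to 11.5% in the other control mock libraries. The difference between the genotype changes with and without CMC was not past the threshold at any of the 697 positions (interaction, 0%; 59, or 8.46%, at an unadjusted p under 0.05; DESeq2 called 8).

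**Figure D4:**
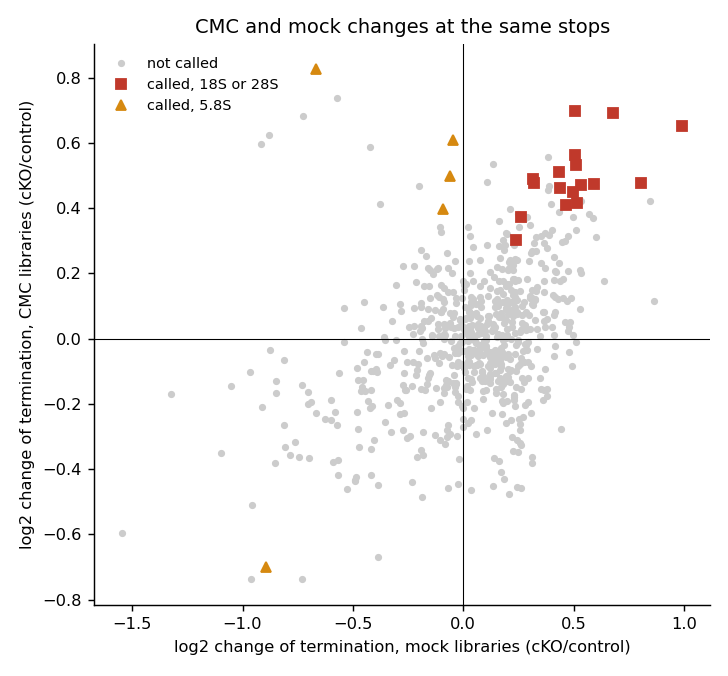
log2 change of termination (cKO/control) in CMC libraries against that in mock libraries at the 697 positions. The 17 called stops of 18S and 28S (red) have mock changes from 0.24 to 0.99, and the 5 called stops of 5.8S (orange) lie to the left of 0.

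Along each rRNA the starts were also summed in bins of 100 nucleotides. Of 71 bins 8 passed (11.3%; edgeR), 1 higher (1.41%) and 7 lower (9.86%) in Rnmt cKO. The lower bins were 6 of the 19 in 18S (101, 501, 801, 1201, 1601 and 1801, by first nucleotide) and the second bin of 5.8S, and the higher one was 28S 1701. In the first of these 18S bins, from 101 to 200, the starts were 13454, 13677, 13696 and 13239 CPM in control and 12060, 11590, 12085 and 12263 CPM in Rnmt cKO, a log2 change of -0.17 (SE 0.04, adjusted p = 0.0400). The 18S bins were lower in 18 of 19 cases with a median log2 change of -0.10, and the 28S bins higher in 37 of 48 with a median of 0.07. Scaled to the total of their own rRNA, 0 of the 71 bins passed (lowest adjusted p = 0.0985), and the medians were 0.01 in both rRNAs. TMM library sizes gave 10 bins, 3 higher and 7 lower.

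The ratio of 28S to 18S starts, which these bins share, was 2.43 ± 0.0413 in control and 2.74 ± 0.0451 in Rnmt cKO (SD, n = 4 each). The groups did not overlap (2-sided exact permutation test, p = 0.0286, below which 4 against 4 libraries cannot go; adjusted over the 5 measures of this kind, p = 0.0714). 18S starts made 22.0 to 23.1% of the library in control and 20.3 to 21.8% in Rnmt cKO, which gave the same exact p-values. The mock libraries also had a lower 18S share in Rnmt cKO, 19.8 to 21.5% against 21.9 to 23.6% (exact permutation test, p = 0.0286; adjusted p = 0.143). Their 28S to 18S ratio overlapped, with 2.68 to 2.92 in Rnmt cKO against 2.37 to 2.82 (exact p = 0.0857; adjusted p = 0.214). Control 1 had the 2.82, against 2.37 to 2.51 in the other controls. Without the last 400 nt of 28S the mock ratio did not overlap, with 1.80 to 1.89 in control and 2.03 to 2.15 in Rnmt cKO (not tested). The CMC ratio was then 1.68 to 1.83 in control and 1.96 to 2.11 in Rnmt cKO. A smaller share of 18S rRNA and a lower yield of reads from it cannot be told apart in these data.

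The last bin was an exception to the small size of the 18S changes. From 18S 1801 to the end the starts were 4087, 5042, 6775 and 5620 CPM in control and 3586, 3963, 2146 and 1838 CPM in Rnmt cKO (log2 change -0.90, SE 0.23, edgeR adjusted p = 0.0400). The last bin of 5.8S had 45351, 45861, 48719 and 46469 CPM in control and 41563, 38794, 29489 and 26950 CPM in Rnmt cKO (log2 change -0.45, SE 0.12, adjusted p = 0.0400). In both bins Rnmt cKO 3 and 4 were the lowest. The last bins of 28S and 5S had log2 changes of -1.03 and -1.11 (adjusted p = 0.254 and 0.164), again with these libraries lowest. The mock changes at the last bins of 18S, 5.8S, 28S and 5S were -0.33, 0.07, -0.52 and -0.39 (edgeR adjusted p from 0.474 to 0.821). With Rnmt cKO 3 and 4 left out, an alternative chosen after seeing the data, 0 bins, 0 positions in termination and 0 in read starts passed, with Rnmt cKO then at 2 libraries. The log2 change of the last bin was then -0.51 in 18S and -0.21 in 5.8S (edgeR adjusted p = 0.161 and 0.0625). Changes in termination at called stops stayed near their size, with 0.70 at 18S 1770, 0.70 at 28S 2690 and 0.60 at 28S 2652 (adjusted p = 0.121 each).

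**Figure D5:**
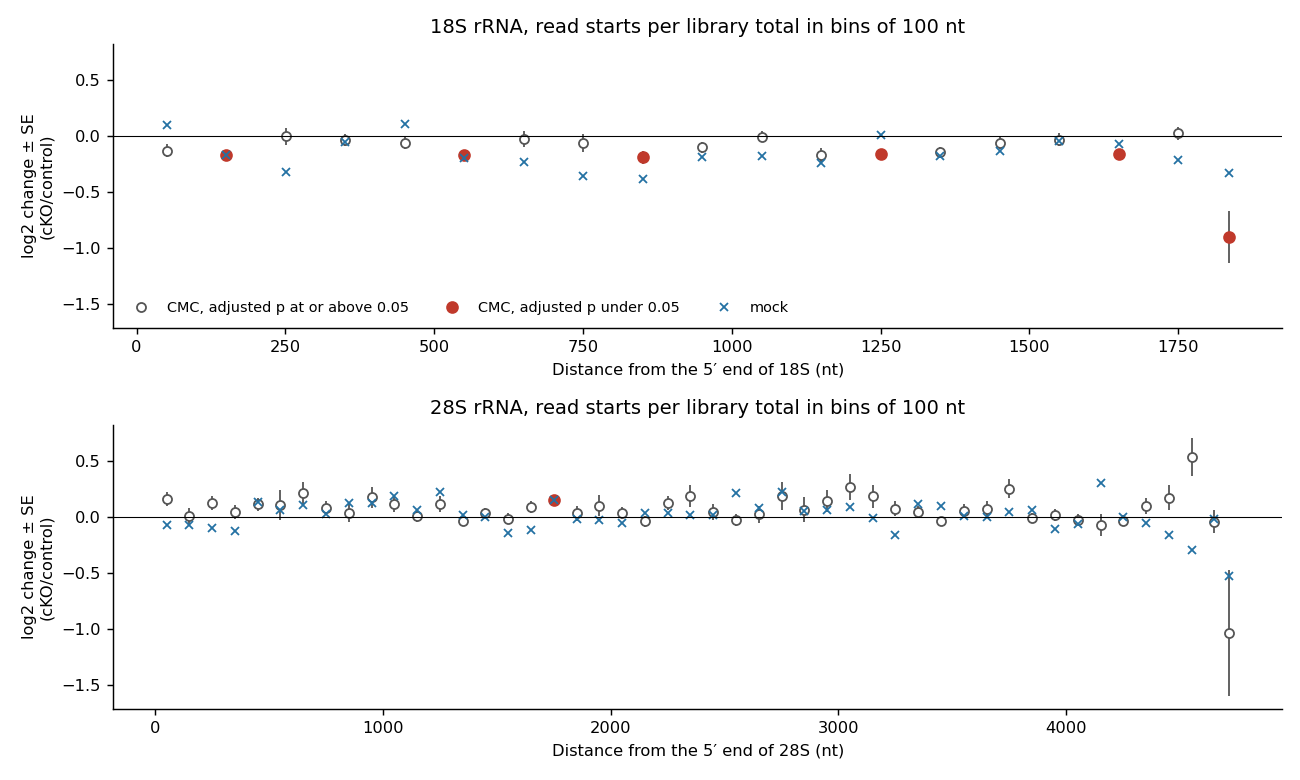
log2 change of read starts per library total (cKO/control) with its SE in bins of 100 nucleotides along 18S and 28S in CMC libraries (circles, filled where the adjusted p was under 0.05), with mock changes as crosses. Most 18S bins lie slightly below 0 and most 28S bins slightly above, and the last bin is at -0.90 in 18S and at -1.03 in 28S.

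By region, calls in termination were 0 of 55 positions in the first of 3 equal parts of 18S, 1 of 50 in the second and 2 of 36 in the last. From 5′ to 3′ along 28S in 5 equal parts they were 1 of 82, 4 of 85, 5 of 93, 4 of 99 and 0 of 117, where 3.16% of all positions were called. The last part of 28S held 17 of the 37 CMC-dependent 28S stops and the largest changes in read starts, and 32 of its 117 positions had an unadjusted p under 0.05 (20.7% of all positions). These counts were not tested against the other regions. 5S rRNA, which is transcribed by RNA polymerase III apart from the other rRNAs, gave 0 of 34 in both tests, with log2 changes in termination from -0.27 to 0.15. Termination was higher in Rnmt cKO at 2 of these 34 positions (median log2 change -0.09), and read starts at 25 (median 0.08).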

How the data were processed

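Ψ-seq libraries were made from 8 animals with and without CMC and sequenced for 75 cycles. According to the study's methods and the labels, the authors extracted the barcode of 10 nt with UMI-tools, trimmed with cutadapt, aligned the reads to rRNA, removed duplicates and discarded alignments with a mapping quality under 20. The methods name bowtie2 and a custom rRNA reference for these libraries, while the submitters' processing notes list STAR 2.5.2b and mm10. The deposited values are counts of read starts, not normalised, in runs that were expanded to single nucleotides. The first nucleotide of each rRNA was left out, as its termination is 100% by construction.

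Counts were tested with glmQLFit and glmQLFTest of edgeR 4.0.16 (R 4.3.3), with the log of the window starts or of the library total as offset, in the libraries compared; a mean of at least 10 starts was required. The interaction used all 16 libraries with the animal as a block. The window ignores fragment length, so termination is an approximation. Alternatives were DESeq2 1.42.0, limma 3.58.1, other windows, thresholds and library sizes. Exact permutation tests used scipy 1.17.1 and figures matplotlib 3.10.9. Positions named were those called (the 10 smallest p per test), the 5 with the highest CMC termination, the 5 with the largest change and the smallest p per test, the 28S stop of earlier results and the strongest 18S stop; other called positions and the CMC-dependent examples were named after their values were seen. Positions, lists and tests were chosen with earlier results of these data known. The scripts were tested on simulated data.

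Groups and numbers came from the sample titles. Deviations of log2 mock termination correlated between same-numbered animals (r = 0.713, 0.456, 0.244 and 0.556 for numbers 1 to 4, across positions), so the blocked mock count is given beside the unblocked one. Libraries within a group differed by more than sampling noise (lowest chi-square per degree of freedom 2.86). Duplicates were removed by barcode, and replicate spread, not counting error, is the error given.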

Additional observations from a re-analysis of the deposited data

Results flagged for a closer look

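In groups of 4 libraries, a value was picked out when its gap to the nearest other library took up more of the group's range than the 95% limit of Dixon's criterion allows. This was examined in 118 groups, of which 8 passed, where chance gives about 5.9. Control 1 was the far library in 6 of the 8. Its CMC termination at 28S 4577 was 6.001%, against 2.15 to 2.23% in the other controls, and its read starts there were 623 CPM against 176 to 190 CPM. At 28S 4582 it had 661 CPM against 161 to 232 CPM, and at 28S 4584 it had 1352 CPM against 329 to 458 CPM. It was also high at 18S 1251, with 4567 CPM against 3960 to 4027 CPM, and low at 28S 2652, with 209 CPM against 288 to 299 CPM. In Rnmt cKO, replicate 2 had a termination of 3.23% at 28S 4577, against 5.55 to 5.69% in the others, and replicate 3 had 1213 CPM at 5.8S 15, against 856 to 889 CPM. The neighbouring 28S stops share reads and windows, so these are not separate events. Their cause was not tested.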

How the results depend on the processing

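The count of 22 called positions in termination became 1 with a window of 40 nt, 0 with 30 nt, 0 at a threshold of 1%, 80 with DESeq2 (56 higher, 24 lower), 14 with library medians subtracted, 14 with positions near an rRNA end left out, 0 without Rnmt cKO 3 and 4 and 0 with the replicate block, with a range from 0 to 40 when 1 library was left out. The shorter windows and the lower threshold test more positions (1778, 2891 and 4018). The 9 called in read starts became 15 at 5%, 0 at 1%, 86 with DESeq2, 14 with TMM, 15 with median-ratio factors, 24 with the total of the same rRNA (20 higher, 4 lower), 15 without the last 400 nt of 28S in the total, 3 with ends left out, 0 without Rnmt cKO 3 and 4 and 0 with the replicate block (0 to 32 across the fits that left out 1 library: 23 without control 1, 32 without Rnmt cKO 2 and 5 without Rnmt cKO 4, 2 without Rnmt cKO 1, 0 otherwise). Over all positions DESeq2 gave 55 and the fits without 1 library 0 to 52, the 52 without control 1. Bins gave 3 with 200 nt, 0 with the total of the same rRNA, 0 without Rnmt cKO 3 and 4 and 4 with the replicate block (0 to 9 without 1 library: 0 without control 2, 3 or 4 or Rnmt cKO 3, 3 without Rnmt cKO 1, 5 without Rnmt cKO 4). Mock termination gave 18 with DESeq2 and 40 with the replicate block, mock read starts 1 with the block, and the interaction 8 with DESeq2; these 3 counts stayed at 0 in every fit that left out 1 animal.

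The replicate numbers did not pair the CMC libraries (r = -0.031, -0.137, -0.097 and -0.594 for log2 termination). Paired by number, the exact permutation test kept the differences of -1.65 percentage points in 18S share and 0.310 in the 28S to 18S ratio but could not go below 0.125. Across the fits that left out 1 library these ranged from -1.91 to -1.43 and from 0.290 to 0.327, with 0.0571 as the smallest p, the 28S share from 2.05 to 3.07 and the 5S share from -1.002 to -0.282. The 5.8S share difference of -0.264 ranged from -0.768 to 0.234, and reversed to 0.129 without control 1 and to 0.234 without Rnmt cKO 4. Leaving out rRNA ends and Rnmt cKO 3 and 4 was chosen after seeing the data, and causes beyond the number of positions or libraries were not tested. With 4 libraries in each group, changes within 2 standard errors of 0 were not detectable. Changes beyond 2 standard errors could also miss the threshold, as 5.8S 133 did in termination (log2 change -0.74, SE 0.19, edgeR adjusted p = 0.0757).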
